A study of Mus musculus with 374 samples.

Results

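Cecr2 is 1 of the 19829 mouse genes in a table of single-cell UMI counts from 5 sorted blood cell populations, and it was chosen here because its UMIs lie mostly in the B lymphocytes. Its UMIs, its level (CPM, the UMIs scaled to the total on mouse genes) and the wells that hold it are described in each population, and then, within the B lymphocyte wells, beside the B220 fluorescence and the forward scatter recorded for each cell at the sort. These are the values the gene was chosen by, so they are given as a description and no test is attached to them.

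The cells came from 1 female C57BL/6 mouse, 10-13 weeks old, with no further genotype or treatment given in the labels, and were deposited singly in the wells of 1 plate. The bone marrow gave 44 B lymphocytes (gate B220+ with low FSC-A, plate rows A and B), 96 erythroblasts (Ter119+ CD44+ with middle or high FSC-A, rows C to F), 96 granulocytes (Mac1+ Gr1+, rows G to J) and 95 progenitor/stem cells (Lin- Kit+ Sca1+, rows K to N). The thymus gave 43 T lymphocytes (CD3+ with low FSC-A, rows O and P). Each population is therefore 1 sample from 1 animal, population and plate rows cannot be told apart, and cells are not replicates: no p-value is given, and all 95% intervals are exact and cover counting error only.

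Cecr2 encodes a bromodomain protein, that is, a protein with a module that binds acetylated lysines on histones and other proteins. It joins the ISWI ATPases Smarca5 and Smarca1, which slide nucleosomes along DNA, as a partner subunit, and it is best known for its part in closure of the neural tube. B lymphocytes mature in the bone marrow from pro-B and pre-B cells, which recombine their immunoglobulin genes with the Rag proteins and carry a pre-B receptor, to cells with IgM and then IgD on the surface that also carry MHC class II. B220, an isoform of the phosphatase CD45, is on the surface from the early stages and at its highest on mature cells.

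In the reference annotation (GENCODE M21, build GRCm38) Cecr2, identifier ENSMUSG00000071226, lies on the + strand of chromosome 6 from 120666369 to 120771190. It spans 104.822 kb, has 8 annotated transcripts of which 4 are coding, and overlaps 0 other annotated genes on either strand. The protocol counts 1 UMI per tagged 3' end, hence the counts are not scaled to transcript length and say nothing of which transcript was present. Levels are compared here between populations or wells for 1 gene at a time.

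The total on mouse genes ranged from 485 to 8330 UMIs per well in the B lymphocytes (median 3028.5), and the medians of the other populations lay between 3880 (granulocytes) and 7959 (progenitor/stem cells). The labels held against marker genes: a list of 7 B lymphocyte markers took 0.956% of the UMIs in the B lymphocytes and 0.0121 to 0.0309% in the other populations. In the B wells the 8 T lymphocyte markers gave 10 UMIs in all, with Cd3g, Cd8b1 and Lck at 0, and the 6 progenitor/stem markers gave 21 UMIs. The 8 granulocyte markers took 0.669% of the UMIs, with 11.5% in well A8, whose Gr1 fluorescence of 15209 stands apart from the gate, and the 7 erythroblast markers, which include the haemoglobin genes, took 2.92%. Well A8 held 0 Cecr2 UMIs and is left out of everything said about the B wells one by one.

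Cecr2 was high in the B lymphocytes, low in the erythroblasts and close to 0 elsewhere. It gave 261 UMIs in 92 of the 374 wells, and 69.0% of these UMIs were in the B lymphocytes, which are 11.8% of the wells. In the B lymphocytes 180 UMIs came to 1325 CPM (interval 1139 to 1534), with 1267 ± 1291 CPM as the mean and SD over 44 wells. In the erythroblasts 67 UMIs came to 100.5 CPM (77.9 to 128), with 103 ± 154 CPM over 96 wells. The progenitor/stem cells held 8 UMIs (9.58 CPM, 4.14 to 18.9), the granulocytes 4 (9.91 CPM, 2.70 to 25.4) and the T lymphocytes 2 (9.98 CPM, 1.21 to 36.1). The order of the levels was thus B lymphocytes, then erythroblasts, each apart from its neighbour by more than counting error, and then T lymphocytes, granulocytes and progenitor/stem cells, whose intervals overlap almost wholly.

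The level in the B lymphocytes was 13.2 times that in the erythroblasts (interval 9.91 to 17.7), 138 times that of the progenitor/stem cells (68.7 to 325) and 134 times that of the granulocytes (51.3 to 496). Against the 2 UMIs of the T lymphocytes the ratio was 133, with an interval from 36.2 to 1105. The erythroblasts were in turn 10.1 times above the granulocytes (3.78 to 38.3) and 10.5 times above the progenitor/stem cells (5.03 to 25.3). Among genes that reached 50 UMIs in the pair of populations compared, and with sums under 3 UMIs set to 3, the log2 ratio of Cecr2 ranked 1st from the top of 1103 against the T lymphocytes, 2nd of 1638 against the granulocytes, 6th of 3793 against the progenitor/stem cells and 77th of 2324 against the erythroblasts. With spike-in (ERCC) scaling in place of CPM the log2 ratio to the erythroblasts was 2.51 in place of 3.72, with TMM factors it was 2.96, and the log2 ratio to the progenitor/stem cells was 5.79 with spike-ins in place of 7.11. With scran size factors the levels in B lymphocytes and erythroblasts were 1118 and 194.

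A Cecr2 UMI was seen in 36 of 44 B lymphocyte wells, or 81.8% (67.3 to 91.8), and in 44 of 96 erythroblast wells, or 45.8% (35.6 to 56.3). The other populations had 6 of 95 wells (6.32%), 4 of 96 (4.17%) and 2 of 43 (4.65%) in progenitor/stem cells, granulocytes and T lymphocytes. The B wells had the lowest depth of the 5 populations, so the shares were also computed for wells thinned to 2000 UMIs. They then were 80.3% in the 33 B wells deep enough (11 were left out), 18.1% in the erythroblasts, and 2.22, 2.00 and 1.59% in progenitor/stem cells, granulocytes and T lymphocytes. The last 3 shares rest on 8, 4 and 2 UMIs, and at this depth they do not separate low expression from stray RNA.

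**Figure D1:**
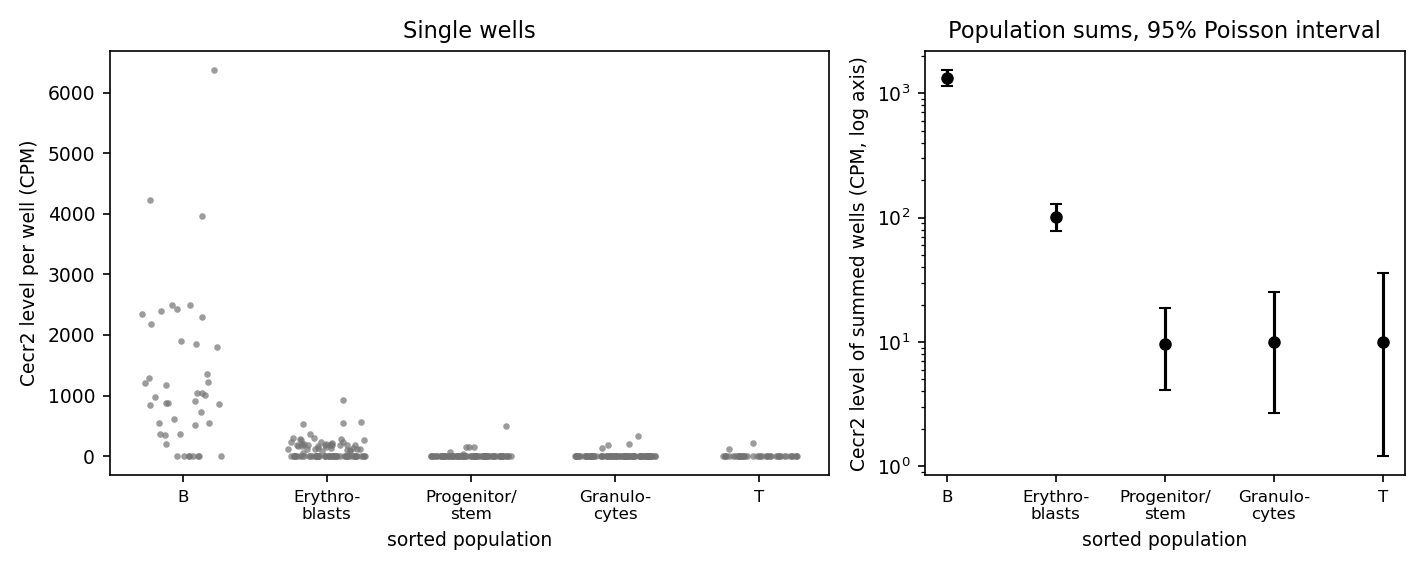
Cecr2 by sorted population. Left, the level in each well in CPM on a linear axis, 1 point per well; right, the level of the summed wells in CPM on a log axis with its exact Poisson interval. The B lymphocytes reach 6374 CPM in 1 well and 1325 CPM as a sum, the erythroblasts 100.5 CPM, and the other populations lie between 9.58 and 9.98 CPM with overlapping intervals.

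Within the B lymphocytes the UMIs were spread unevenly. Of the 44 wells, 8 held 0 Cecr2 UMIs, 7 held 1, 4 held 2, 8 held 3, 5 held 4, and 12 held 5 or more, with 20 in well A4 and 19 in well B5. The well median was 3 UMIs. The top 2 wells held 21.7% of the B lymphocyte UMIs and the top 8 wells 55%. The variance of the UMIs over their mean, which is 1 for pure counting error at equal depth, was 5.39 over the 43 wells without A8. For comparison, it was 1.51 for Cd79b and 2.56 for Cd79a, which signal for the B cell receptor, 3.97 for the recombinase gene Rag1 and 8.30 for Ms4a1, the gene of CD20. Depth was not equal between these wells, which raises the variance over the mean, more so for genes with more UMIs. The values of different genes are therefore only roughly comparable. Both plate rows held Cecr2 alike: row A without A8 was at 1452 CPM (1176 to 1773) and row B at 1289 CPM (1028 to 1596). The Cecr2 UMIs per well rose with depth, with a Pearson r of 0.54 and a Spearman rho of 0.39 with the total over 43 wells, and 0.21 and 0.30 without the 2 wells farthest from the median depth, A4 and B1. The CPM of Cecr2, which is scaled to depth, had an r of 0.13 with the total.

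The erythroblast signal was set beside other B lymphocyte genes, since RNA from one cell can be counted in the wells of another. For every 100 UMIs in the B wells, Cecr2 had 37.2 in the erythroblast wells (27.7 to 49.5), whereas Cd79a, Cd79b, Ms4a1, Ighm, Ebf1, Vpreb3 and Igkc had 1.75 to 10.9. In the granulocyte wells Cecr2 had 2.22 and these 7 genes 0.641 to 9.78, in the T wells 1.11 and 1.28 to 6.78, and in the progenitor/stem wells 4.44 and 1.61 to 26.5. Outside the erythroblasts Cecr2 was therefore within or under the range of other B genes, and in the erythroblasts it was above all 7. These 7 genes were taken as markers of the population and not as genes with 0 expression elsewhere.

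The signal also differed among the erythroblast rows. Row C, which adjoins the B lymphocytes on the plate, held 32 of the 67 UMIs and was at 178 CPM (122 to 251). Row D had 15 UMIs and 101 CPM (56.7 to 167), row E 10 UMIs and 54.1 CPM (25.9 to 99.5), and row F 10 UMIs and 65.0 CPM (31.2 to 119). Row C was 2.48 times above rows D to F (1.48 to 4.12). Other B genes were higher in row C too: Ighm had 28 UMIs in its 24 wells against 8 in the 72 wells of rows D to F, and Igkc 26 against 16. Their part in the row C level of Cecr2 was not tested. Without row C, the erythroblasts stood at 71.9 CPM (50.1 to 100.0; 35 UMIs in 29 of 72 wells), which is 7.25 times the granulocytes (2.59 to 28.1) and 7.50 times the progenitor/stem cells (3.42 to 18.7), and the B lymphocytes were 18.4 times higher (12.8 to 27.3). For every 100 UMIs in the B wells, rows D to F had 19.4 of Cecr2 (13.1 to 28.1) and 1.26 to 5.97 of the 7 other B genes. In rows D to F, 20 of the 29 wells with Cecr2 held 0 UMIs of the 7 B lymphocyte markers, a list with Pax5 in place of Igkc. Of all 72 wells in these rows only 20 held a UMI of these markers. Most wells thus lacked them with or without Cecr2, and the count of 20 in 29 is near the share of all wells. Most erythroblast wells with Cecr2 held a single UMI (31 of 44), 13 held 2 or more, and the highest held 6.

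**Figure D2:**
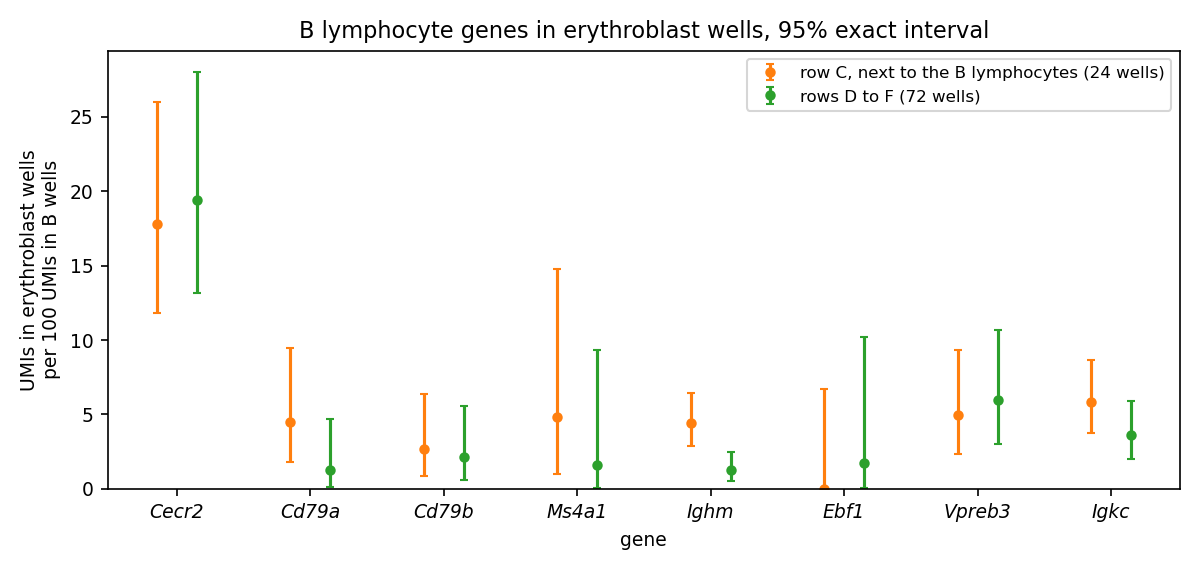
UMIs in erythroblast wells per 100 UMIs in B lymphocyte wells, for Cecr2 and 7 other B lymphocyte genes, with exact intervals. Cecr2 has 17.8 in row C and 19.4 in rows D to F, while the other genes have 0 to 5.83 and 1.26 to 5.97. These values are for 24 and 72 wells and are not scaled to wells or depth. By CPM, Cecr2 in row C was 2.48 times above rows D to F.

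Across the erythroblast wells the level of Cecr2 showed little relation to what the sorter recorded. Pearson's r with Ter119 was 0.07, with CD44 0.04 and with FSC-A -0.15, and with the total UMI count it was -0.04, all over 96 wells of 1 mouse and described with no test. Spearman's rho was 0.05, 0.04, -0.04 and 0.03 in the same order.

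The genes around Cecr2 with more than 8 UMIs in any population did not share its pattern. Within 500 kb on either side, 13 of the 32 other annotated genes have a row, and all 13 have a UMI. The most abundant were Kdm5a, a histone H3 lysine demethylase gene, with 46 UMIs in the B lymphocytes and 76, 193, 72 and 66 in erythroblasts, progenitor/stem cells, granulocytes and T lymphocytes, and Il17ra, a cytokine receptor gene, with 26, 23, 227, 167 and 47. Kdm5a was at 339 CPM in the B lymphocytes and 329 CPM in the T lymphocytes, and Il17ra was highest in the granulocytes at 414 CPM. The gene of the Bcl-2 family protein Bcl2l13, the nearest coding neighbour with a row at 65.0 kb, was highest in the erythroblasts (75 UMIs, 112 CPM) and gave 5 UMIs in the B lymphocytes. Mical3 and Ccdc77 were likewise highest in the erythroblasts, with 51 and 48 UMIs, and gave 1 and 2 in the B lymphocytes. Usp18, which removes the ubiquitin-like protein Isg15 from its targets, was highest in the T lymphocytes, with 16 UMIs there and 2 in the B lymphocytes. Tmem121b, Hdhd5, Gm20692, Gm25193, Gm44260, Tuba8 and Gm15856 had 8 UMIs or fewer in every population, too few to compare patterns. Gm20692 and Gm15856 are antisense genes, whose counts depend on whether strand was used, which is not given.

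The genes most like Cecr2 over the 5 population sums were found by Pearson's r of log2(CPM + 10) among 3905 genes with at least 100 UMIs. Over all these genes the median r was -0.06, and 24 were above 0.9; with 5 points that share their libraries an r of this size is a description only. The 10 highest were Serinc5 (r 0.99), Chchd10 (0.99), Aff1 (0.97), Ndufa9 (0.96), C1galt1 (0.95), Cd79a (0.94), Ints13 (0.94), Fcrla (0.94), Tcf3 (0.94) and Dda1 (0.93). Serinc5, a gene of a multi-pass membrane protein, gave 501 CPM in the B lymphocytes, 73.5 in the erythroblasts and 12.4 to 25.0 in the other populations. Chchd10, a gene of a small mitochondrial protein, gave 574 CPM in the B lymphocytes, 117 in the erythroblasts and 9.91 to 25.0 elsewhere. Those 2 genes share with Cecr2 the middle level in the erythroblasts.

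The rest of the 10 were alike in shape and less so in size. C1galt1, the gene of a glycosyltransferase that extends O-linked sugars, ran from 57.0 CPM in the granulocytes to 655 CPM in the B lymphocytes, and Tcf3, the gene of the E2A transcription factors needed for B cell development, from 34.7 to 501 CPM. Aff1, a gene of the transcription elongation machinery, ran from 74.9 to 361 CPM. Ndufa9, Ints13 and Dda1 varied little, with 73.6, 118 and 73.6 CPM in the B lymphocytes and no less than 37.2, 38.3 and 34.7 CPM elsewhere. Cd79a (1149 CPM) and Fcrla, a Fc receptor-like gene of B cells (626 CPM), were high in the B lymphocytes and both at 13.5 CPM in the erythroblasts, against 100.5 CPM for Cecr2. Of the other B lymphocyte markers, Vpreb3 ranked 18, Cd79b 36 and Ighm 102. By the cosine of the CPM, which gives weight to size, 2 of the 10 genes remained among the 10 highest, Fcrla and Cd79a.

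The next list holds partners and subunits of ISWI remodelling complexes in general, and not only partners of Cecr2. Of 13 listed ISWI partners and subunits 11 have a row, and 5 to 8 of them reached 50 UMIs in a pair of populations. In all 4 comparisons 0 of these were past 4-fold in either direction, where among all genes tested 7.62% were higher in B lymphocytes and 17.3% lower against the erythroblasts, 2.43 and 5.27% against the progenitor/stem cells, 5.25 and 17.5% against the granulocytes and 5.08 and 7.16% against the T lymphocytes. With 5 to 8 genes tested, a count of 0 is near these shares and is no result about the list. Smarca1 gave 2 UMIs in all, both in the progenitor/stem cells, and was in no comparison. The list's median log2 ratio was -0.24, -0.46, 0.77 and 0.09 in that order, beside -0.35, -0.44, -0.01 and -0.29 for all genes. Smarca5, the other ATPase that Cecr2 joins, gave 24 UMIs and 177 CPM in the B lymphocytes (113 to 263), 396 CPM in the erythroblasts (350 to 447), 290 among the progenitor/stem cells (255 to 329), 102 among the granulocytes (72.9 to 138) and 175 in the T lymphocytes (122 to 243). Bptf, Baz2b and Baz1a, which like Cecr2 carry a bromodomain and serve ISWI ATPases, were at 383, 457 and 243 CPM in the B lymphocytes and at 136, 124 and 232 CPM in the erythroblasts. Bptf was highest in the T lymphocytes, at 689 CPM.

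Among the other bromodomain genes, 31 of 33 have a row, and 1 was higher in the B lymphocytes past 4-fold in every comparison, out of 20, 22, 15 and 10 tested against erythroblasts, progenitor/stem cells, granulocytes and T lymphocytes. A share of 1 in 20 or 1 in 22 is near the 7.62 and 2.43% of all genes. This gene was Smarca4, which encodes the ATPase Brg1 of the SWI/SNF (BAF) remodelling complexes. It gave 191 UMIs and 1406 CPM in the B lymphocytes (1214 to 1621), against 142, 253, 86.7 and 220 CPM in erythroblasts, progenitor/stem cells, granulocytes and T lymphocytes. Its log2 ratios were 3.30 (2.94 to 3.67), 2.48 (2.19 to 2.77), 4.02 (3.49 to 4.58) and 2.68 (2.20 to 3.19), so that in 3 of the 4 comparisons its interval lay wholly under that of Cecr2. Against the erythroblasts the intervals of both genes overlap. Brpf3, Atad2 and Kat2b were lower in the B lymphocytes than in the erythroblasts past 4-fold, with 5, 13 and 3 UMIs in the B wells, and 3 of 20 is near the 17.3% of all genes that were lower. Of the 4 most abundant members, Pbrm1, Phip and Trim28 stayed within 4-fold in all comparisons.

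The level of Cecr2 within the B lymphocytes was then set beside B220. Over the 43 wells B220 fluorescence ran from 358 to 4783 in arbitrary units, with a median of 1089, and left a gap between 1718 and 2458. The gap was noticed in the data, and the wells on its sides are a split by fluorescence and not groups of the study. Over all 43 wells Pearson's r between B220 and Cecr2 CPM was -0.36 and Spearman's rho -0.27, and without the 2 wells farthest from the median they were -0.29 and -0.16. Within plate row A Pearson's r was -0.52 and within row B -0.26. Summed over the 21 wells above the median, Cecr2 had 66 UMIs and 1061 CPM, and over the 22 at or below it 114 UMIs and 1650 CPM, a log2 ratio of -0.64 (-1.10 to -0.19). Well A4, with 20 of these UMIs, lay at the median itself, and the size of the ratio depended on the wells used. It was -0.24 with A8, -0.29 without A8 and B2 and -0.23 without the 2 wells farthest from the median. Within rows A and B it was -0.48 and -0.78.

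This difference lay in the few wells above the gap. The 8 wells there held 4 Cecr2 UMIs, 195 CPM (53.2 to 500), and the 35 wells below it held 176 UMIs, 1589 CPM (1363 to 1842), a log2 ratio of -3.02 (-4.92 to -1.64). A Cecr2 UMI was found in 3 of the 8 wells and in 33 of the 35, at median depths of 2321 and 3080 UMIs. The 5 wells with the highest B220, A14, B10, A21, A6 and B16 with 4783, 4753, 4323, 4145 and 3867, all held 0 Cecr2 UMIs, although A6 and A14 held 4426 and 3723 UMIs in all. Summed over these 5 wells, 0 of 13005 UMIs allow a level of up to about 231 CPM, taken as 3 UMIs of the total and not as an exact interval. The 3 wells between them and the gap, B20, A19 and B23 (2458, 3224 and 3422), held 1, 1 and 2. Just under the gap, well A10 (1718) held 3.

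Below the gap the relation did not have the same sign. Over these 35 wells Pearson's r with B220 was 0.17 and Spearman's rho 0.20, and Cecr2 was at 1915 CPM (1575 to 2306) in the 17 wells above their median of 984 and at 1231 CPM (950 to 1569) in the 18 wells at or below it. Over all 43 wells, taken in the order of B220 as 3 bins of 11 wells and 1 of 10, the level was 1078 CPM (770 to 1467) from 358 to 881, 2314 (1817 to 2906) from 912 to 1089, 1509 (1137 to 1964) from 1098 to 1486 and 427 (213 to 765) from 1486 to 4783. By these bins Cecr2 was highest at middle B220 and lowest at the top. Wells A4 and B5 alone held 39 of the 74 UMIs in the second bin. Both were also among the 17 wells above the median of 984. The intervals do not cover such spread between wells, so a peak at middle B220 is not established. Haemoglobin RNA took 4.49, 1.87, 1.77 and 3.40% of the UMIs in these bins, and its part in the levels was not tested. The neighbouring wells B19 to B24, with 5.21 to 13.6% haemoglobin, held 15 Cecr2 UMIs and 365 to 1230 CPM.

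Forward scatter (FSC-A), which rises with cell size, showed no such relation. Over the 43 wells, which the gate holds to a range of 63424 to 87872, Pearson's r with Cecr2 CPM was -0.02 and Spearman's rho 0.08, with an r of 0.07 within row A and -0.06 within row B. The 21 wells above the median of 73920 were at 1347 CPM (1088 to 1651) and the other 22 at 1397 CPM (1119 to 1724), a log2 ratio of -0.05 (-0.49 to 0.39). This interval covers counting error and not the spread between wells, so it does not bound the difference. The ratio was 0.20 within row A, -0.38 within row B and 0.12 without the well with the most Cecr2 UMIs. Bins of the same sizes in the order of FSC-A stood at 1363, 1420, 1838 and 984 CPM. Among the 35 wells below the B220 gap the log2 ratio was -0.49 (-0.94 to -0.05) with a rho of 0.02, and well B5, which had the highest level at 6374 CPM, was among the lower in FSC-A at 69184. Of the other recorded channels Sca-1 had the largest values, with r -0.31 and rho -0.41 over 43 wells. Sca-1 fluorescence, up to 13448, was high in most wells above the B220 gap and low in most below it. Its relation to Cecr2 was not examined apart from that split.

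**Figure D3:**
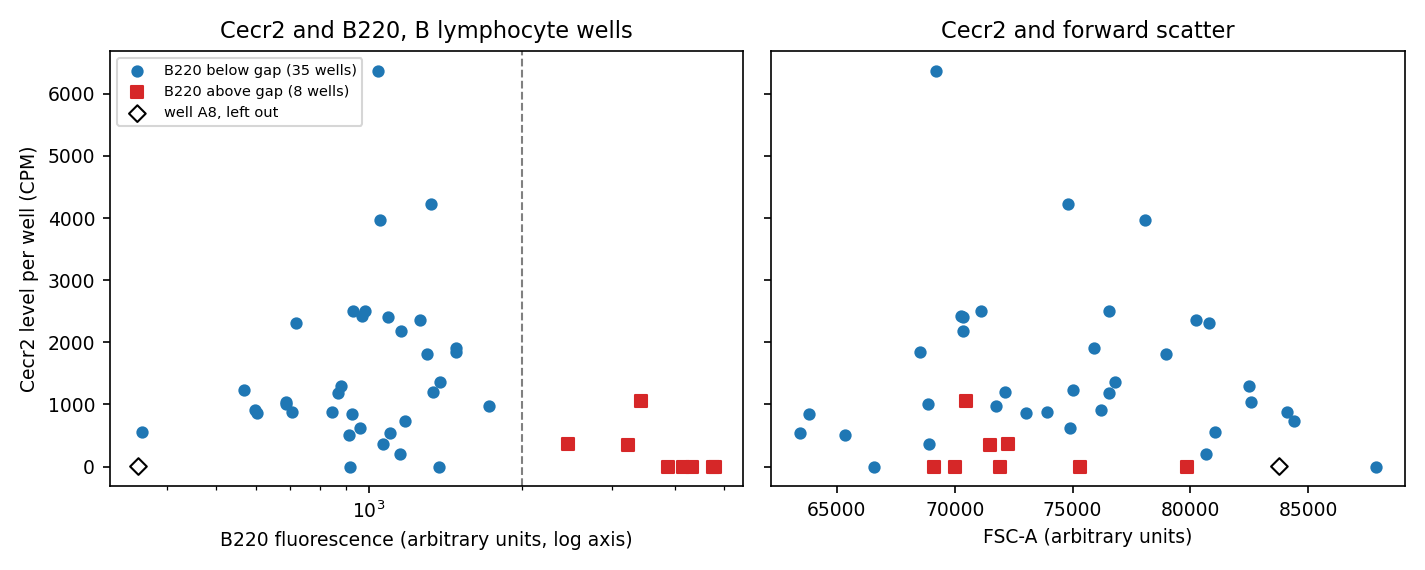
Cecr2 level in CPM in each B lymphocyte well against B220 fluorescence (left, log axis) and FSC-A (right), both in arbitrary units. Circles are the 35 wells below the B220 gap (dashed line at 2000), squares the 8 wells above it, of which 5 are at 0, and the open diamond is well A8, left out of the values. Over FSC-A the wells have a Spearman rho of 0.08.

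Well by well, Cecr2 went with genes of early B cell stages. The pro-B and pre-B list (10 of 12 genes with a row) had an r of 0.58 and a rho of 0.74 with Cecr2 over 43 wells, and 0.46 and 0.57 over the 35 below the gap. Most of the 587 UMIs of this list in the 44 B wells were of Vpreb3 (201), Myb (121), Sox4 (93), Rag1 (89) and Il7r (51). Its members Dntt, Rag2, Vpreb1 and Igll1 gave 5, 4, 2 and 2 UMIs there, too few to compare. The mature B list (11 of 12 with a row) had an r of -0.49 and a rho of -0.62, and -0.33 and -0.38 below the gap. The cycling list (13 of 13) had an r of -0.05 and a rho of 0.00 to 2 decimals, and the B lymphocyte markers an r of 0.09 and a rho of 0.13. The markers are a mixed list, which shares Vpreb3 with the pro-B and pre-B list and Ms4a1 with the mature B list. Its members with at least 50 UMIs ran from a rho of -0.50 for Ms4a1 to 0.52 for Vpreb3. All these wells share 1 animal and 1 plate, both measures are shares of the same total, and the correlations are descriptions.

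**Figure D4:**
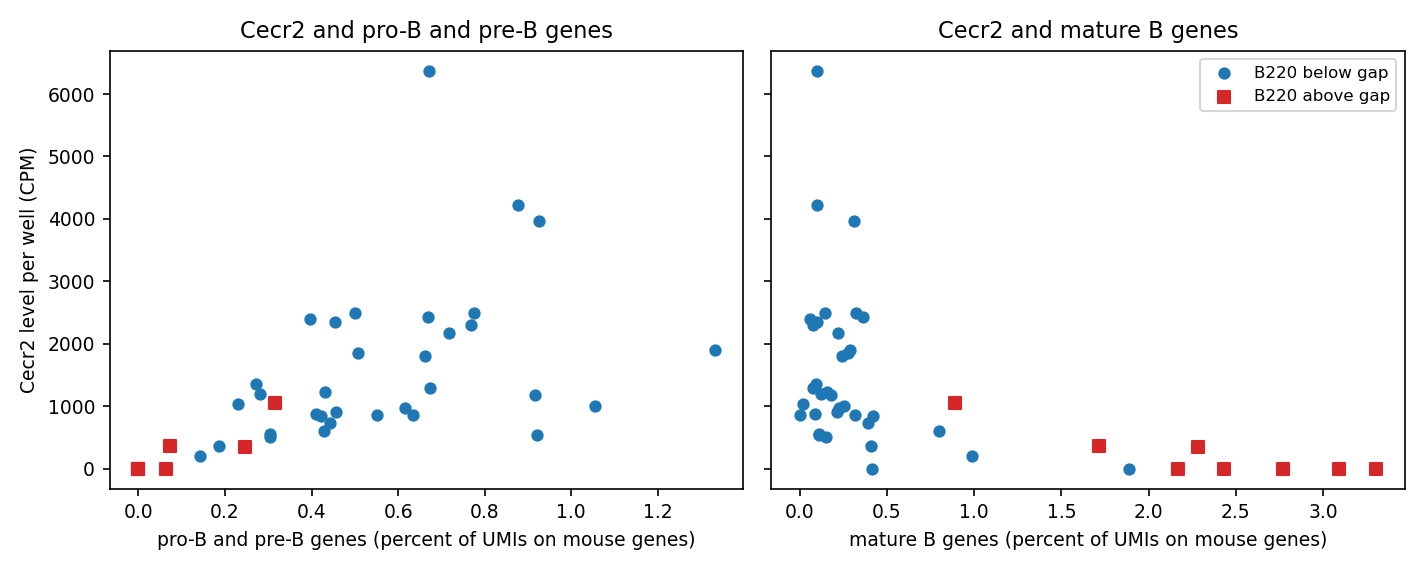
Cecr2 level in CPM in 43 B lymphocyte wells against the percentage of UMIs on pro-B and pre-B genes (left) and on mature B genes (right). Squares are the 8 wells above the B220 gap, circles the 35 below; wells with over 1% on mature B genes hold at most 365 CPM of Cecr2.

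The 8 wells above the B220 gap held a larger share of the mature B list and a smaller share of the pro-B and pre-B list. The mature B list took 2.35% of their UMIs and 0.257% of those below the gap, a log2 ratio of 3.19 (2.98 to 3.41), and the pro-B and pre-B list took 0.0781 and 0.515%, a log2 ratio of -2.72 (-3.54 to -2.01). Cd74, the invariant chain of MHC class II, had 180 UMIs above the gap and 67 below, H2-Eb1, a class II chain, a log2 ratio of 4.49 (3.60 to 5.49), and Ighd, the heavy chain of IgD, 55 and 25 UMIs. On the other side Vpreb3, which binds newly made immunoglobulin chains in pre-B cells, had 4 and 197 UMIs, Myb, a transcription factor of progenitors, 2 and 119, Sox4 1 and 92, and Rag1 3 and 86. Cecr2, at a log2 ratio of -3.02, lay among these early genes. Not every list member split clearly. The mature B gene Ms4a1 had 12 and 50 UMIs, a log2 ratio of 0.38 (-0.67 to 1.30). The pro-B and pre-B gene Il7r had 4 and 47, a log2 ratio of -1.12 (-3.05 to 0.33). The B lymphocyte markers as a whole, which include Vpreb3, were at -0.35 (-0.59 to -0.11), the ISWI list at -0.23 (-0.80 to 0.31) and the other bromodomain genes at -0.30 (-0.63 to 0.01). Of the bromodomain genes with at least 50 UMIs in these wells, Smarca4 had 6 and 184 UMIs (log2 ratio -2.50, -3.97 to -1.35), whereas the intervals of Pbrm1, Phip and Ash1l hold 0.

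**Figure D5:**
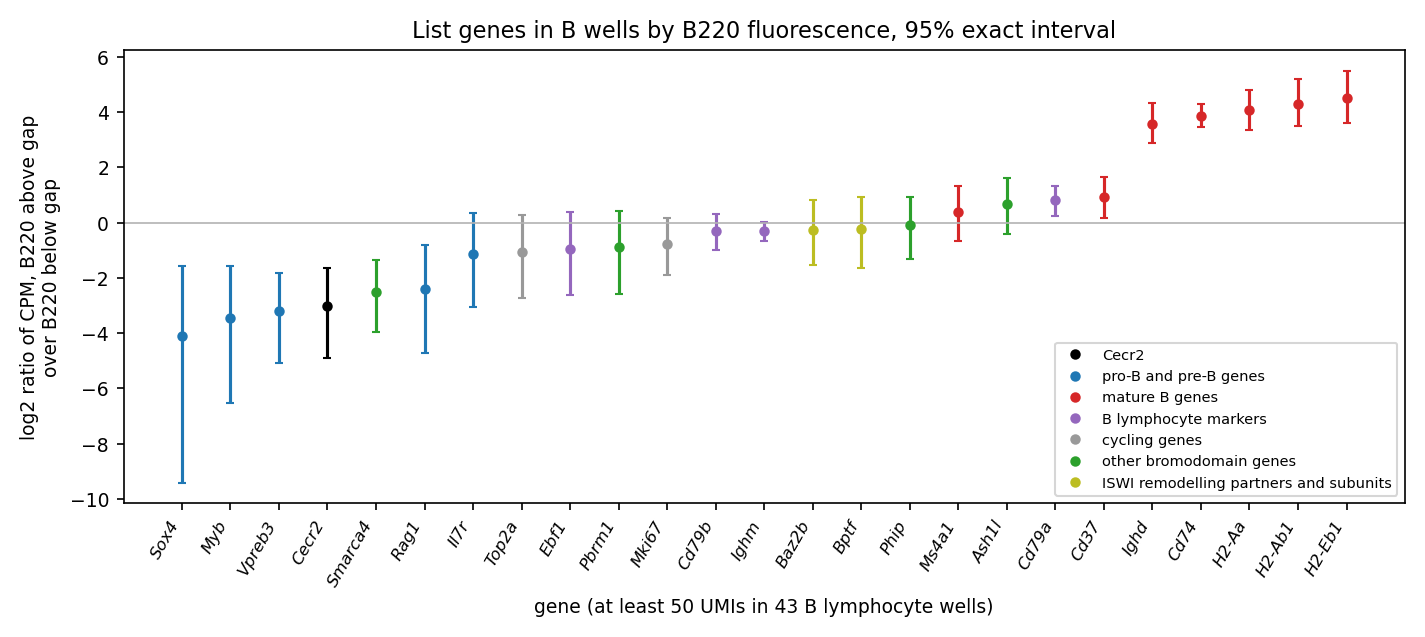
Log2 ratio of the level in the 8 B lymphocyte wells above the B220 gap to that in the 35 below it, for Cecr2 and the list genes with at least 50 UMIs in these wells, with exact intervals for counting error. Cecr2 (-3.02) lies between Vpreb3 (-3.19) and Smarca4 (-2.50), and the MHC class II genes and Ighd lie between 3.57 and 4.49.

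The wells without Cecr2 below the gap were few. Well B2 had 0 Cecr2 UMIs at a B220 fluorescence of 1373, and it also carried CD3 fluorescence of 7905, 1.89% mature B genes and 0 UMIs of pro-B and pre-B genes. Well B6 had 0 at the lowest depth of the B wells, 485 UMIs, of which 18.1% were haemoglobin. At that depth 0 UMIs allow a level of up to 6186 CPM (3 UMIs of the total), which does not separate absence from a level like that of the other wells. Of the 7 wells at 0 other than A8, 5 were thus above the gap, and the pro-B and pre-B list was at 0 in 6 of the 7, with 0.0639% in B16. The wells with the most Cecr2 by level, B5, A7 and A17 (6374, 4226 and 3963 CPM), had 0.671, 0.878 and 0.925% pro-B and pre-B genes and 0.101, 0.0975 and 0.308% mature B genes.

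Gene by gene, over 279 genes with at least 50 UMIs in the 43 wells, Spearman's rho with Cecr2 had a median of 0.03 and 5th and 95th percentiles of -0.34 and 0.50. Myb ranked 1st with a rho of 0.74 and Smarca4 2nd with 0.64. Among the 35 wells below the gap these were 0.61 and 0.50, where the 95th percentile was 0.39. Rag1 ranked 5th (0.58), Sox4 7th (0.56), Vpreb3 11th (0.52), Ebf1, a transcription factor of B cell identity, 12th (0.52), and Il7r, the receptor of the cytokine that pro-B cells need, 19th (0.48). At the lower end were Cd74 (-0.55), H2-Eb1 (-0.54), H2-Ab1 (-0.53), H2-Aa (-0.51) and Ms4a1 (-0.50). Below the gap the class II genes were closer to 0, from -0.11 to -0.18, with Cd74 at -0.26, while Ms4a1 remained at -0.46. Myb, Rag1 and Vpreb3 were each past 4-fold above the erythroblasts in the B lymphocytes as a whole, but Myb had 548 UMIs in the progenitor/stem cells, where Cecr2 had 8.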

How the data were processed

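Single cells of 5 sorted populations were measured by CEL-seq2, a 3' end protocol with unique molecular identifiers (UMIs), on 1 plate. The counts deposited by the authors are whole UMIs for each gene in each well, not normalized, made with scPipe, which aligns reads, assigns them to exons, demultiplexes barcodes and collapses UMIs. Which build, annotation and strand setting they used is not given in the sources used. The index fluorescence is from the labels.

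Wells were matched to samples by name, leaving 9 columns without a sample unused. Of 19829 mouse gene rows 19755 have a symbol in GENCODE M21 (GRCm38), whose coordinates may be of another build than the authors used. The 74 ERCC rows stayed out of the totals. UMIs were summed per population with Python 3.11.15, numpy 2.4.6, pandas 2.3.3, scipy 1.17.1 and matplotlib 3.10.9, and the steps were checked on simulated data. The 95% intervals are exact Poisson for sums, binomial for shares and conditional binomial for ratios. Sums under 3 UMIs were set to 3 for ranks and 4-fold calls, and genes needed 50 UMIs in the pair. With 1 sample per population no test was made. scran 1.30.0 and edgeR 4.0.16 (TMM only) under R 4.3.3 served for alternatives. Alternatives of the wells used, the scaling, the depth, the filters and the likeness measure were tried.

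Cecr2 and all lists were chosen with earlier results of these data known. The genes named are Cecr2, the 10 most like it, the neighbours within 500 kb with a UMI, and, of fixed lists, members with at least 50 UMIs that were past 4-fold or among the 4 most abundant. Igkc was added after the data were seen. Smarca1, Rag2, Vpreb1 and Igll1 are below 50 UMIs and are named to show their low counts. Pbrm1, Phip, Ash1l and the MHC class II genes beside the B220 gap are list members with 50 UMIs in the 43 wells. List genes with no row are not analysed here, and no sequence of Cecr2 is shown.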

Additional observations from a re-analysis of the deposited data

How the results depend on the processing

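No paired analysis was possible because each population is 1 sample and the numbers of the wells only name them. Of 150 alternative values 114 stayed within the counting interval (0.1 for a correlation, 1.5 times for a count) and 36 moved. By the rule used 0 were called a change of sign, but a ratio whose interval holds 0 could not be called so. The FSC-A log2 ratio was such a case, at -0.05 over all 43 wells and 0.20 within row A. For B220, the wells below the gap were not among the 150, and there Pearson's r was 0.17 in place of -0.36. The order B lymphocytes, erythroblasts and the rest held with CPM without Gm42418, Mir6240 and mitochondrial genes, ERCC, scran and TMM. Depth limits the populations with 8, 4 and 2 Cecr2 UMIs, whose order cannot be told.

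The B lymphocyte level was 1820 CPM without Gm42418, Mir6240 and mitochondrial genes in the total, 721 by ERCC (scaled so that all wells together keep their CPM) and 1118 with scran size factors. The erythroblast level was 71.9 CPM without row C, 194 with scran and 170 with TMM. The log2 ratio to the erythroblasts was 4.20 without row C, 2.51 by ERCC and 2.96 with TMM, and that to the progenitor/stem cells 5.79 by ERCC. Thinned to 2000 UMIs, 18.1% of erythroblast and 2.22% of progenitor/stem wells kept a Cecr2 UMI; thinned to 1000, 61.7% of B lymphocyte, 9.67% of erythroblast, 1.11% of progenitor/stem and 0.913% of granulocyte wells did. For B220, Spearman's rho was -0.16 without the 2 farthest wells, Pearson's r -0.52 in row A and -0.26 in row B, and the log2 ratio -3.02 at the gap. For FSC-A the rho was 0.20 with UMIs in place of CPM. The 10 most similar genes shared 5 with those from 50 UMIs on, 3 from 200 UMIs on and 2 by cosine. With at least 20 and 100 UMIs, the genes past 4-fold higher in the B lymphocytes numbered 518 and 51 against the erythroblasts (177 at 50 UMIs), 181 and 37 against the progenitor/stem cells (92), 223 and 28 against the granulocytes (86), and 129 and 17 against the T lymphocytes (56). Those lower numbered 119 at 100 UMIs against the progenitor/stem cells (200), 149 against the granulocytes (286), and 212 and 28 at 20 and 100 against the T lymphocytes (79). Apart from the thinning and the filters, which leave fewer UMIs or other genes by construction, the cause was not tested. The split at the gap and the values without row C were chosen after the data were seen.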
